A study of Mus musculus with 2 samples.

Results

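Genomic DNA of whole mouse embryos at E10.5 was set against that of a control cross on a comparative genomic hybridisation array, where differently dyed DNAs of the 2 sides compete for each probe. The material described here is the autosomes of 1 array, that is the probes that the deposited file places on chromosomes 1 to 19. They number 40490 of the 42370 probes kept on that array, and of 84766 probe values kept on the 2 arrays of the series. The remaining probes of the array lay on X (1566) or on unplaced contigs (314). The DNA of wild-type offspring of a heterozygous Dnmt3L sire was labelled with Cy5, and DNA of a control cross with Cy3. The labels give both sides as female and Dnmt3L+/+, so the altered allele should be in neither channel. One label gives the embryos as (FVB/NJ x C57BL/6)F1 and another as C57BL/6, so the strain is not settled. How many embryos gave each DNA, and whether they were pooled, is not stated in these sources. The adult array, used only for values set beside those of the embryos, had the dyes the other way round, with tail DNA of adult female wild-type offspring of a heterozygous sire in Cy3 and an unrelated C57BL/6 colony in Cy5.

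Dnmt3L has no catalytic activity of its own and acts as a cofactor of the enzymes that place new DNA methylation in germ cells. In the male germ line it is needed to methylate transposable elements and paternally imprinted regions, and mice that lack it cannot keep such elements silent. Offspring that inherit the intact allele from a heterozygous father carry a normal gene, so the design compares their DNA content with that of embryos from a control cross. On such an array a log2 ratio of 0 means equal dosage, and loss of a single autosomal copy gives a ratio near −1 in the ideal case.

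There was 1 hybridisation and no replicate. No test, p-value or biological error can be given, and the number of arrays limits the precision. Every spread below is over probes or over repeated spots of this array. Offspring and control each had a single dye and the labels show no dye swap for the embryos, so an effect of the dye and an effect of the group cannot be told apart. All ratios are log2 of offspring over control, centred on the array median. Positions follow the array files, which name no genome build.

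To show the sequence context of genes at both ends of the range, promoters were taken from RefSeq (build GRCm38.p6, 250 bases before to 50 after the start, on the gene's strand). They belong to Gtf2h4, the gene with the highest median, to Klf4 and En1, whose ratios were also high, and to Gtf2b and Gbp1 (now Gbp2b), which lie in a stretch of chromosome 3 that was lower in offspring. The regions are chr17:35673694-35673993 (minus strand), chr4:55532426-55532725 (minus strand), chr1:120602237-120602536 (plus), chr3:142764997-142765296 (plus) and chr3:142594597-142594896 (plus). Capitals mark CG, the pair of bases at which mammalian DNA is methylated, which reads the same on both strands.
Gtf2h4: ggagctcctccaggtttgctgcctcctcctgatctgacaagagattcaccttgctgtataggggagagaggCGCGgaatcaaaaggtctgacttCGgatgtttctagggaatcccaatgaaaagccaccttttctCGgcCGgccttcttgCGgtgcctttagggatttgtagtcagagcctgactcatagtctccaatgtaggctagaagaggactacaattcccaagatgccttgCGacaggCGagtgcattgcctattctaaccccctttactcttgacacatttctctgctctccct
Klf4: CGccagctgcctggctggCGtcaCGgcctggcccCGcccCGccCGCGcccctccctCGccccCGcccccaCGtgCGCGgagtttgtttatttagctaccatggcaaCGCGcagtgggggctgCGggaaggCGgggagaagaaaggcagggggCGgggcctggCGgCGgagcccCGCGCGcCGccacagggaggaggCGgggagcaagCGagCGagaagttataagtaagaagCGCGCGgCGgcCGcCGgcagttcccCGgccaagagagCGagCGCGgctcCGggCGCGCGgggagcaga
En1: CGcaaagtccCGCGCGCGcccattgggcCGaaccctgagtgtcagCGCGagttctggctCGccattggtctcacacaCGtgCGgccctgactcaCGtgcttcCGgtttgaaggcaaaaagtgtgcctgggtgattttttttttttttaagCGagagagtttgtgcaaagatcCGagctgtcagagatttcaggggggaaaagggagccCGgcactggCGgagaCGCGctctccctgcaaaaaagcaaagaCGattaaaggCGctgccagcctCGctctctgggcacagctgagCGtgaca
Gtf2b: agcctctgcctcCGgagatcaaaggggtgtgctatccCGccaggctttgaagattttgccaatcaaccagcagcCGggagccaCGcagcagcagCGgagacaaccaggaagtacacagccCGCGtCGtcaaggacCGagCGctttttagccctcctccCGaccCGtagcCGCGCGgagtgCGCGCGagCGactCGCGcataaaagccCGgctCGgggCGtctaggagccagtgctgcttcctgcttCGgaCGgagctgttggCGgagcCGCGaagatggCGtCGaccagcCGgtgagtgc
Gbp2b: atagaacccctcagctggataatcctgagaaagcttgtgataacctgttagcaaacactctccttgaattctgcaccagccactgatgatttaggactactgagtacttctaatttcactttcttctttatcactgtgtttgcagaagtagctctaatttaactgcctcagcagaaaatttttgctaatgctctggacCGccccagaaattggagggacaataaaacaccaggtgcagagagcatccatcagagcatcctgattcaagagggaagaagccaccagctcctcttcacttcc
They hold 8 CG in Gtf2h4, 40 in Klf4, 23 in En1, 32 in Gtf2b and 1 in Gbp2b, and 94.6% of the 32851 promoters in the table hold at least 1, with a median of 7. Both the high genes and the lower stretch thus include a promoter rich in CG and one with far fewer.

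Signal was high on this array. The median processed signal was 1011 for offspring and 1016 for control, and 99.9% of autosomal probes (40439) were well above background in both channels and not saturated, here called usable. Autosomal ratios had a median of 0.011, an interquartile range of −0.17 to 0.17 and an SD of 0.34. Of the autosomal probes, 296 were spotted at least 3 times, and the median SD over their spots was 0.065, with a highest SD of 0.48. The noise between neighbouring probes was 0.27, so most of the scatter lay between probes and not between spots of a probe. On X, which is not an autosome, the median ratio was −0.86, although the labels name both sides as female, and the cause was not tested. The gene Dnmt3l itself had 2 probes. They read 625 in offspring against 578 in control, a log2 ratio of 0.11, and 1341 in offspring against 1224 in control, a ratio of 0.12. Both lie within the interquartile range of all autosomal probes, and their place relative to the altered part of the gene is not stated.

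The autosomes were even in dosage at the scale of whole chromosomes. Medians of the 19 autosomes ran from −0.014 on chromosome 6 to 0.027 on chromosome 11, with an SD of 0.011. In 2014 complete windows of 20 consecutive probes the medians had an SD of 0.076, and 1672 windows (83.0%) lay within 0.1 of 0. Only 3 windows went past 0.3 in size, 2 upward and 1 downward. The lowest window, on chromosome 3 from 140429244 to 141604936, had a median of −0.73, and the next lowest, also on chromosome 3 from 141692112 to 143697732, had −0.28. Both overlap the block described below. The lowest window on another chromosome ran on chromosome 19 from 35590934 to 36512996 with a median of −0.25 and 14 of 20 probes below 0, and the adult array had 0.16 there. It was followed by a window on chromosome 1 around the Delta and Notch-like receptor gene Dner (−0.23, adult 0.18) and one on chromosome 14 with the connexin genes Gja3, Gjb2 and Gjb6 (−0.23, adult 0.055).

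The 5 highest windows spanned 208 to 607 kb. The window with the highest median, 0.39, ran on chromosome 10 from 79850506 to 80058844 with 17 of 20 probes above 0, and the adult array had −0.13 there. A window on chromosome 2 from 30216595 to 30823187, with the homeobox gene Prrx2 and the prostaglandin E synthase gene Ptges, had 0.35 (adult −0.039). The other 3 of the highest 5 lay on chromosome 8 near Jak3 (0.29, adult 0.16), on chromosome 7 near Calm3 (0.29, adult 0.047) and on chromosome 8 near Il12rb1 (0.27, adult −0.024). Among the fifth of windows that span the least DNA (117 to 398 kb), 12 of 403 reached 0.2 and 0 reached −0.2. Among the fifth that span the most (1564 to 10689 kb), 0 of 403 reached 0.2 and 3 reached −0.2. Windows at 0.2 or more all lay in the 3 classes of shortest span, and those at −0.2 or less in the 3 of longest span.

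**Figure D1:**
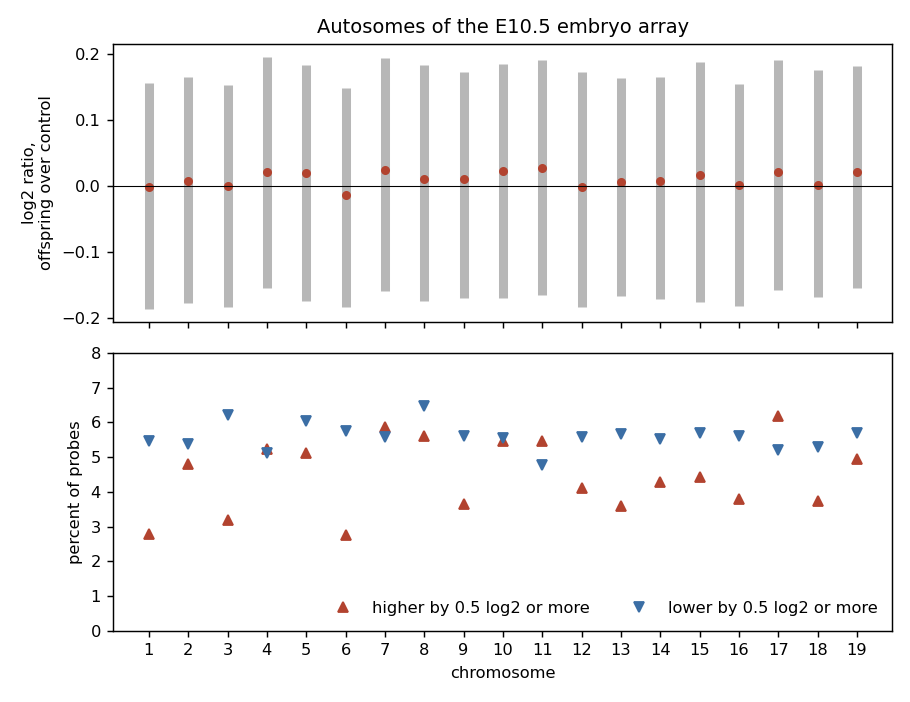
Autosomes on the x axis. The upper panel gives the median log2 ratio of offspring over control (points) and the interquartile range (grey bars) of each chromosome, all medians between −0.014 and 0.027, and the lower panel gives the percent of probes higher or lower by 0.5 log2 or more. Chromosome 17 has the highest share of higher probes (6.20%) and chromosome 6 the lowest (2.75%), while the shares of lower probes run from 4.77% on chromosome 11 to 6.47% on chromosome 8.

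Single probes departed from 0 in both directions, with unlike tails. By 0.5 log2 or more, 1833 probes were higher in offspring (background share 4.53% of the autosomal probes) and 2257 were lower (background share 5.57%), so 44.8% of the probes past this size were higher. With another background correction (normexp with an offset, on signals from before dye scaling) 2907 were higher and 1036 lower, or 73.7% higher. By 1 log2 or more the order turned, with 481 higher and 150 lower. By 1.5 log2 there were 160 higher and 5 lower, and by 2 log2 there were 50 higher and 1 lower. On the adult array the long tail lay on the other side, with 184 higher and 447 lower by 1 log2. As the offspring were in Cy3 there and in Cy5 on the embryo array, the long tail was on the Cy5 side of both. Whether it reflects the dye or the animals was not tested.

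**Figure D2:**
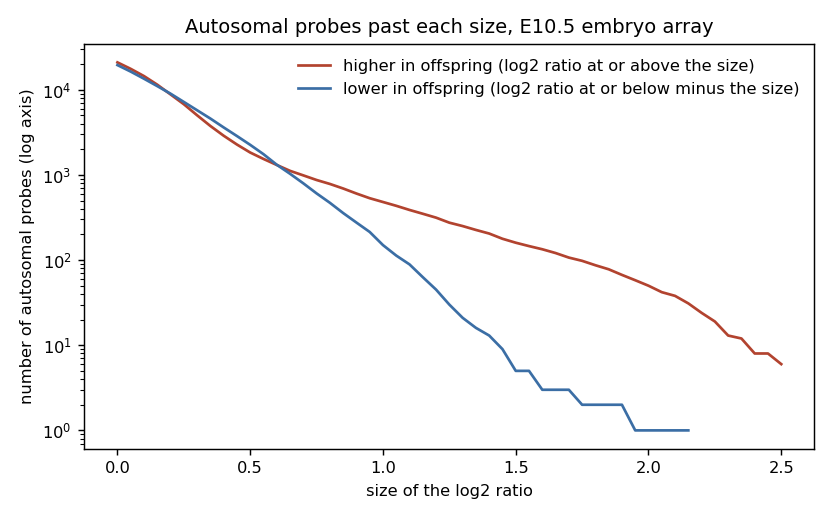
Number of autosomal probes (log axis) at or past each size of the log2 ratio, for probes higher in offspring and for probes lower in offspring. The lines cross between 0.5 and 1: 1833 higher against 2257 lower at 0.5, and 481 higher against 150 lower at 1.

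The highest single probe was that of Rpl36, a ribosomal protein gene on chromosome 17, with signals of 3584 in offspring and 442 in control and a ratio of 3.01 (adult −0.68). Next came a probe of Klf4, a zinc finger transcription factor used in reprogramming to pluripotency, with 385 in offspring and 59.6 in control and a ratio of 2.69. The lowest usable probe was in Pkn2, a protein kinase gene on chromosome 3, with 360 in offspring and 1348 in control and a ratio of −1.91 (adult −1.03). A probe of 2810430M08Rik on chromosome 1 had −2.19, with 76.6 in offspring and 347 in control, but was not usable. Below −1.5 there was also Klf1, the erythroid Krüppel-like factor that switches on globin genes, with 403 in offspring and 1177 in control (−1.55, adult 0.0042).

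Short probes were more frequent among the strongly higher probes than among the strongly lower ones. Probes on the array ran from 45 to 60 bases, and 79.3% of the autosomal ones had the full 60. Of the probes at 1 or more, 52.2% had 60 bases, against 81.3% of those at −1 or less. Among 1191 probes of 45 to 49 bases the median ratio was 0.14, 16.9% were higher by 0.5 and 3.61% lower. Among 32111 probes of 60 bases the median was 0.00030, 3.52% were higher and 5.79% lower. Across all 40490 autosomal probes, which share 1 array and are not replicates, the ratio correlated with length at −0.133 (Pearson, Spearman −0.0995). On the adult array the shortest probes had a median of −0.11 and the 60-base probes 0.022. The probe sequences were not used here, so base composition itself was not tested.

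Signal level and place on the array bore on the tails less evenly. In the dimmest 10% of probes 9.14% were higher and 9.39% lower by 0.5, with an SD of 0.45. In the brightest 10% 5.71% were higher and 1.36% lower, with a median of 0.11 and an SD of 0.28. With the array divided into 25 equal fields of 1579 to 1681 probes, the share of higher probes ran from 3.76% to 5.28% and that of lower probes from 3.75% to 6.62%, so no field held most of either tail. Probes outside named genes (3253) had 3.57% higher and 4.76% lower, against 4.61% and 5.64% of probes with a gene name.

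Large ratios were mostly not shared along the genome. Neighbouring probes less than 0.1 kb apart, which read almost the same DNA, correlated at 0.764 over 92 pairs. At 0.1 to 1 kb the correlation was 0.168 (716 pairs), at 1 to 10 kb 0.0351 (10323 pairs) and at 10 to 100 kb 0.0240 (25021 pairs). Of the named probes at 1 or more, 233 had another probe of the same gene at least 1 kb away. For each, the median over such other probes of its gene was taken. These values had a median of 0.046, and 17 (7.30%) reached 0.5, against 4.61% of all probes with a gene name. For probes at −1 or less, 85 had such a probe, with a median of −0.0036, and 6 (7.06%) reached −0.5. Over all probes with a gene name, 5.64% were at or below −0.5. Probes of Gbp1, Ccbl2 and Gtf2b, in the chromosome 3 block described below, were among these 6. A large ratio therefore seldom extended over the gene that carried it.

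At the level of genes, 11071 autosomal names had at least 2 usable probes, and the median over their probes was taken. Of these, 226 were higher in offspring by 0.5 (background share 2.04%) and 167 were lower (background share 1.51%), so 57.5% of them were higher. With the normexp correction 318 were higher and 48 lower, or 86.9% higher, and 135 of those 318 and 39 of those 48 were among the genes past this size before. Past 1 log2 there were 31 higher and 2 lower genes, Pkn2 and Gtf2b. Requiring every probe of the gene to pass 0.5 left 27 higher and 20 lower. With at least 4 usable probes, 498 genes remained, of which 1 was higher and 4 were lower.

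Among the 20 highest genes, from 1.03 to 1.80, 17 rested on 2 probes and 3 on 3, and in all but 5 some probe lay below 0.5. Klf4 showed how far probes of a gene can differ. Its 3 probes, from 55444380 to 55448011 on chromosome 4, read 806, 1010 and 385 in offspring against 668, 467 and 59.6 in control, with ratios of 0.26, 1.11 and 2.69. The probe with the highest ratio was the one with the lowest signal. Maml1, a coactivator of Notch signalling on chromosome 11, was among the 5 genes whose probes all passed 0.5, with 2012 and 1376 in offspring against 1298 and 506 in control and ratios of 0.62 and 1.43. Nek8, a kinase gene of the primary cilium, was another, with 756 and 1762 in offspring against 220 and 1086 in control and ratios of 1.77 and 0.69. The remaining 3 of these 5 were Gtf2h4, Gna15 and Gdap1l1.

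Other genes of the 20 paired a probe near 0 with a probe near or above 2. Ptprs, a receptor tyrosine phosphatase of neurons, had −0.029 and 2.28, Ly6h, a membrane protein gene, −0.14 and 2.33, and Srrp (now Srsf12), a splicing factor gene, −0.27 and 2.37. Smpd2, a sphingomyelinase gene, had 0.11 and 2.03, and Thrap5 (now Med16), a Mediator subunit gene, 0.11 and 2.11. Gsn, which encodes the actin-severing protein gelsolin, had −0.065 and 2.39, and Hmgn3, a nucleosome-binding protein gene, 0.27 and 2.16. Mg29 (now Sypl2), Tram2 and AI790205 (now Gpr107) had lower probes of 0.31, 0.21 and 0.29 and higher ones of 1.92, 1.87 and 1.86. On the adult array 13 of the 20 genes lay below 0, as did 66.1% of all autosomal probes that were at 1 or more on the embryo array.

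Among the 20 lowest genes, from −1.13 to −0.73, 6 lay in the chromosome 3 block and 14 elsewhere. In 7 of the 20 every probe was at or below −0.5. Outside the block these included Cog6, a subunit of a Golgi tethering complex, at −0.60 and −1.06, Pex14, a peroxisomal import factor, at −0.69 and −0.95, and AV340375 (now Dis3l) at −0.76 and −0.78. The AV340375 probes lay 17 kb apart on chromosome 9 and read 641 and 1597 in offspring against 1083 and 2736 in control. Mapk6, which encodes the atypical kinase ERK3, was the lowest outside the block at −0.92, from probes at −0.44 and −1.41. NM_007958 (now Smarcad1, a chromatin remodeller) had −0.87, Fignl1, which acts in DNA repair, −0.83, and C630013N10Rik (now Klhl26) −0.82. Faf1, Als2cr3 (now Trak2), C330011J12Rik (now Pik3c2b), 4930444A02Rik (now Pomk) and AI461933 (now Srbd1) lay between −0.77 and −0.73, and D11Wsu99e (now Fam104a) had −0.91. Of the 14 genes outside the block, 12 lay above 0 on the adult array, whose values for them ran from −0.076 to 0.44. Of all autosomal probes from −0.5 to −1 on the embryo array, only 24.1% were below 0 on the adult array.

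Genes with 4 or more probes gave smaller ratios. Triobp, which encodes an actin-bundling protein of the inner ear, was the 1 higher gene, at 0.65 on chromosome 15. Its 4 probes, from 79042110 to 79186008, read 2135, 768, 1050 and 1670 in offspring against 1245, 458, 893 and 1129 in control, and all 4 were above 0, from 0.23 to 0.77. Below it came Plcb3 (0.45), 2500002G23Rik (now Zfp777, 0.39), 2610510H03Rik (now Fam98b, 0.36), Bccip (0.35), C730036B14Rik (now Fancm, a gene of the Fanconi anaemia DNA repair pathway, 0.34), Caln1 (0.32), 2310004K06Rik (now Tmem9b, 0.31), Lrig3 (0.29) and 3110082D06Rik (now Ptchd4, 0.29). The probes the file names Plcb3 spread over 38404 kb and those named 2610510H03Rik over 25022 kb, so these names do not stand for a single gene.

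The lower genes with 4 or more probes were Gbp1 (now Gbp2b) in the chromosome 3 block, 2310047D13Rik (now Tlcd3a), Ncam1 and BB128963 (now Mtmr10). Ncam1, the neural cell adhesion molecule on chromosome 9, had 4 probes from 49558675 to 49822638 that read 689, 1516, 460 and 358 in offspring against 816, 2876, 855 and 426 in control. All 4 lay below 0, at −0.25, −0.93, −0.90 and −0.26, and the adult median was 0.036. BB128963 had a median of −0.50 with probes from −0.74 to 0.37. Short of 0.5 followed Rfx3 (−0.48), 0610039J04Rik (now Setd6, −0.47), LOC433744 (−0.44), Lig1, the DNA ligase of replication (−0.41), Ubr2, a ubiquitin ligase (−0.41), and NAP125263-001 (−0.38). The file places Rfx3 on chromosome 11, while the RefSeq table gives chromosome 19, and the probes named 2310047D13Rik, 0610039J04Rik, LOC433744 and NAP125263-001 spread over 508 to 29149 kb.

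Probes spotted at least 3 times gave ratios with a spread between spots. Shox2, a homeobox gene of limb and heart development, had the highest mean, 1.24 ± 0.11 (SD, 3 spots), with 220 in offspring and 92.7 in control. It was followed by 1110006G14Rik (now Sox6os) at 1.11 ± 0.015, A530013C23Rik at 0.87 ± 0.082, AK041805 at 0.80 ± 0.17 and Crispld1 at 0.80 ± 0.22. The lowest were Tdp1, a DNA repair enzyme gene, at −0.84 ± 0.027, Svil at −0.83 ± 0.055, Dnahc5 (now Dnah5), a motor protein gene of cilia, at −0.82 ± 0.043, Olfr553 at −0.73 ± 0.024 and G6pd2 at −0.72 ± 0.082. Of the 296 such probes, 13 were higher by 0.5 and 23 were lower. These ratios exceed the spread between spots, but the spots share 1 hybridisation. The error that the scanner software gives is larger, at 0.96 log2 for Shox2, 0.98 for AK041805 and 0.64 for Crispld1, so that of AK041805 exceeds its ratio. Over all autosomal probes past 0.5, 77.9% of the higher and 68.0% of the lower reached 2 times this error.

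The autosomal segment with most probes was a block on chromosome 3 from 141049857 to 141851709 (802 kb, 21 probes), which was lower in offspring. Its median signals were 577 in offspring and 1243 in control, and its median ratio was −0.88 (SD over probes 0.40, signal ratio 0.542). All 21 probes lay below 0, 18 were at or below −0.5 and 8 at or below −1. The 21 probes also lay below 0 on the adult array, with a median of −0.94 and the offspring in the other dye. Within the block the 2 sets of values did not follow each other from probe to probe, with a Pearson correlation of −0.159 over the 21 probes. This number describes probes of shared arrays and carries no test.

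Read from left to right, the block began in Bmpr1b, a receptor of bone morphogenetic proteins that acts in cartilage and the ovary. Its 1 probe inside the block read 637 in offspring and 1548 in control (−1.29), while the next probe to the left, 85.6 kb away and also in Bmpr1b, had −0.018. The edge on this side thus fell within or near that gene. A probe named Nrap followed at 138 in offspring and 316 in control (−1.20). The RefSeq table gives Nrap on chromosome 19, so the name of this probe is uncertain. Pdlim5, which links kinases to the actin cytoskeleton, read 490 and 971 in offspring against 863 and 1836 in control (−0.82 and −0.93).

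The middle of the block held guanylate-binding protein genes, GTPases induced by interferon that act against intracellular pathogens. The 6 probes of Gbp1 (now Gbp2b) ran from 141474599 to 141541704. They read 2047, 577, 941, 205, 842 and 519 in offspring against 2182, 1059, 1661, 494, 1457 and 831 in control. The first of them was almost even at −0.099 (adult −0.98), and the other 5 lay between −1.27 and −0.69. Gbp2 read 951 and 539 in offspring against 1243 and 1462 in control (−0.39 and −1.45). The gene family can share sequence between copies, so probes of Gbp1 and Gbp2 may read more than 1 copy.

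The right side of the block held genes of general cell functions. Ccbl2 (now Kyat3), a kynurenine aminotransferase gene, read 438 and 766 in offspring against 901 and 1220 in control (−1.05 and −0.68). Gtf2b, the general transcription factor TFIIB, read 678 and 425 in offspring against 1328 and 903 in control (−0.98 and −1.095). Pkn2 read 1349 and 360 in offspring against 1711 and 1348 in control (−0.35 and −1.91), so its 2 probes, 66.5 kb apart at their outer ends, differed by more than any other pair of a gene in the block. The last probe, of 9530052C20Rik, read 315 in offspring and 526 in control (−0.75). The next probe to the right, of Gm1651, lay 1241 kb away at 0.19, so the right edge is known less closely than the left. The 30 probes on the left had a median of −0.13 and the 30 on the right −0.041.

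**Figure D3:**
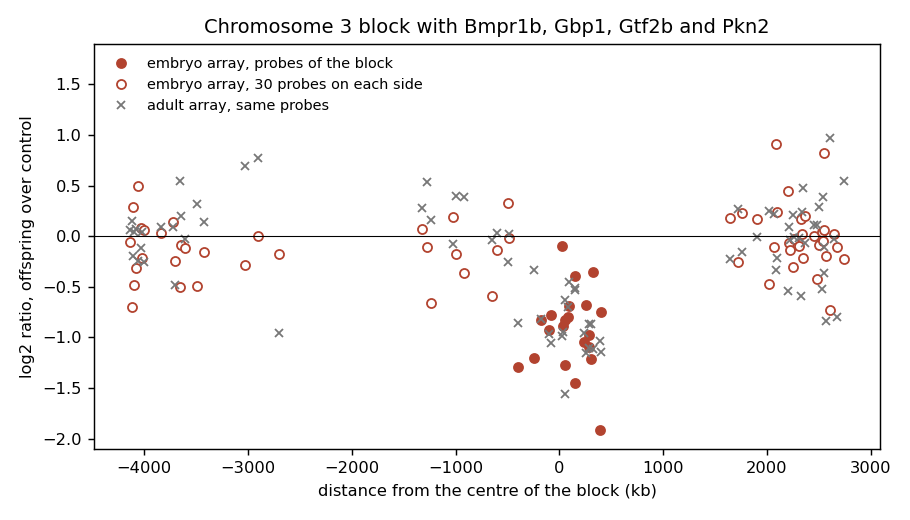
Log2 ratio of offspring over control (y axis) against distance from the centre of the chromosome 3 block in kb (x axis), for the 21 probes of the block (filled), 30 probes on each side (open) and the same probes on the adult array (crosses). All 21 probes of the block lie below 0 on both arrays, and the probes on either side scatter around medians of −0.13 and −0.041.

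Beside this loss, 18 autosomal gains were called, on 13 chromosomes. Their number depended on the settings: it was 2 with the normexp correction, 2 with a penalty factor of 5 and 8 with at least 5 probes per segment. They had 74 probes in all, 13 of them had 3 probes, the fewest that a segment may have, and their medians ran from 0.45 to 1.72. Every gain held at least 1 probe at 1 or more. Of their 74 probes 34 (45.9%) had the full 60 bases, against 79.3% of all autosomal probes. On the adult array 14 of the 18 had medians below 0, so that they were above 0 there when read as Cy5 over Cy3. Of all autosomal probes at 1 or more on the embryo array, 66.1% were below 0 on the adult array. Among probes within 0.5 of 0 the share was 48.9%. Whether the gains differ between the arrays was not tested.

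The gain with most probes, on chromosome 10 from 79878094 to 80020335, had 12 probes. Its highest was that of Thrap5 (now Med16), a Mediator subunit gene, with 969 in offspring and 224 in control (2.11). BC005764 read 3692 in offspring and 1599 in control (1.20). The adipsin gene Adn (now Cfd), a complement factor, read 563 in offspring and 266 in control (1.07). Prtn3, a serine protease of neutrophil granules, read 2528 in offspring and 1252 in control (1.01), but its neighbour NE (now Elane), neutrophil elastase, read 1350 in offspring and 1212 in control (0.15). Fgf22, a growth factor of synapses, read 1703 in offspring and 745 in control (1.19). The 2 probes of Palm, a membrane-bound protein of neurons, disagreed, at 1.07 and −0.21. Of the 12 probes 10 were above 0 and 6 at 1 or more.

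The Hoxb cluster on chromosome 11 was the gain with the next most probes, 8, from 96096738 to 96174966. The Hox genes are homeobox transcription factors that set position along the body axis, and lie in 4 clusters in the order in which they are used. Hoxb9 read 659 in offspring and 493 in control (0.41), Hoxb7 3931 in offspring and 2324 in control (0.75), and Hoxb6 4049 in offspring and 2861 in control (0.49). Hoxb5 read 1397 in offspring and 1290 in control (0.11) and Hoxb4 1658 in offspring and 1359 in control (0.28), and TC1444024, which has no gene symbol, had 0.16. Hoxb3 read 765 in offspring and 263 in control (1.53), and Hoxb2 983 in offspring and 451 in control (1.12). All 8 probes were above 0, with an SD of 0.50, and their adult median was −0.071. Hoxb1 had 0.011 and fell outside the segment.

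Gains of few probes rested on 1 or a few high probes. On chromosome 4 from 55446655 to 55483513, 2 probes of Klf4 stood beside AY512912 at 0.32. On chromosome 8 from 119303713 to 119357566, Usp10, a deubiquitinating enzyme gene, read 853 and 881 in offspring against 216 and 464 in control (1.98 and 0.92), while Crispld2, a secreted protein gene, had 0.38. On chromosome 7 from 114718766 to 114752611, Eef2k, the kinase of elongation factor 2, read 532, 574 and 607 in offspring against 103, 440 and 380 in control (2.37, 0.38 and 0.67). Its high probe had 46 bases and the others 60.

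On chromosome 5 from 117158060 to 117193910, Tesc, a calcium-binding protein gene, read 1130 and 680 in offspring against 255 and 485 in control (2.14 and 0.48), beside Fbxw8, an F-box protein gene, at 0.48. On the same chromosome from 22878153 to 22892938, the ion channel gene Accn3 (now Asic3) read 3737, 6364 and 226 in offspring against 1802, 4607 and 50.2 in control (1.04, 0.46 and 2.16), the last from a probe that was not usable. The anion exchanger Slc4a2 read 1763 in offspring and 562 in control (1.64), and between them Cdk5, a kinase of neurons, was almost even at 1841 in offspring and 1719 in control (0.091). High and even probes thus alternated within 15 kb.

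The gain on chromosome 14 from 115501607 to 115700354 rested on TC1463335 at 2.63, where control signal was 57.1, while Ranbp5 (now Ipo5), a nuclear import receptor, read 9660 in offspring and 6287 in control (0.61). On chromosome 19, 2410080I02Rik read 2086 in offspring and 362 in control (2.52) and stood beside AK046642 at 0.45. On chromosome 17 from 33384046 to 33406316, Gtf2h4 and Ddr1, a collagen receptor kinase gene, gave the highest median (1.72) with the lowest SD (0.21). Its 2 Gtf2h4 probes overlap and read nearly the same bases, 766 and 1113 in offspring against 207 and 336 in control, so they are not separate readings. The chromosome 18 gain, from 84887718 to 84900420, held AK046784 (5070 in offspring, 1429 in control, 1.82) and B230399E16Rik (now Dipk1c) at 0.68 and 1.19. On chromosome 3 from 28223242 to 28484372, probes of transcripts with no gene symbol had 0.99, 0.088 and 1.39.

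On chromosome 10 there were 4 gains in all. From 80930325 to 80940577, Amh, the anti-Müllerian hormone gene, was itself nearly even at 449 in offspring and 407 in control (0.13), between AK088566 at 2.46 and 2300003C06Rik (now Jsrp1) at 1.23. From 81628873 to 81667018, the G protein subunit genes Gna15 and Gna11 had 0.67, 1.75, 0.56 and 1.23, next to Ncln at 1.001, and another Gna11 probe outside the segment had −0.17. From 76503181 to 76545026, AK015109 had 1.93 and 1.47 next to Pcnt2 (now Pcnt), a centrosome gene, at 0.086, and another AK015109 probe outside the segment had −0.46. The remaining gains were on chromosome 6 in 2500002G23Rik (0.58, 1.42 and 1.45, within 0.209 kb), on chromosome 7 with Lrdd (now Pidd1) at 1.68, Irf3 at 1.26 and Rplp2 at 0.22, and on chromosome 15 in 2410104I19Rik (now Puf60) at 1.61 and 2.13, beside NAP125263-001 at −0.38. Outside these segments another 2410104I19Rik probe had −1.14, with 370 in offspring and 810 in control. The 2500002G23Rik probes outside the segment ran from −0.070 to 0.19.

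**Figure D4:**
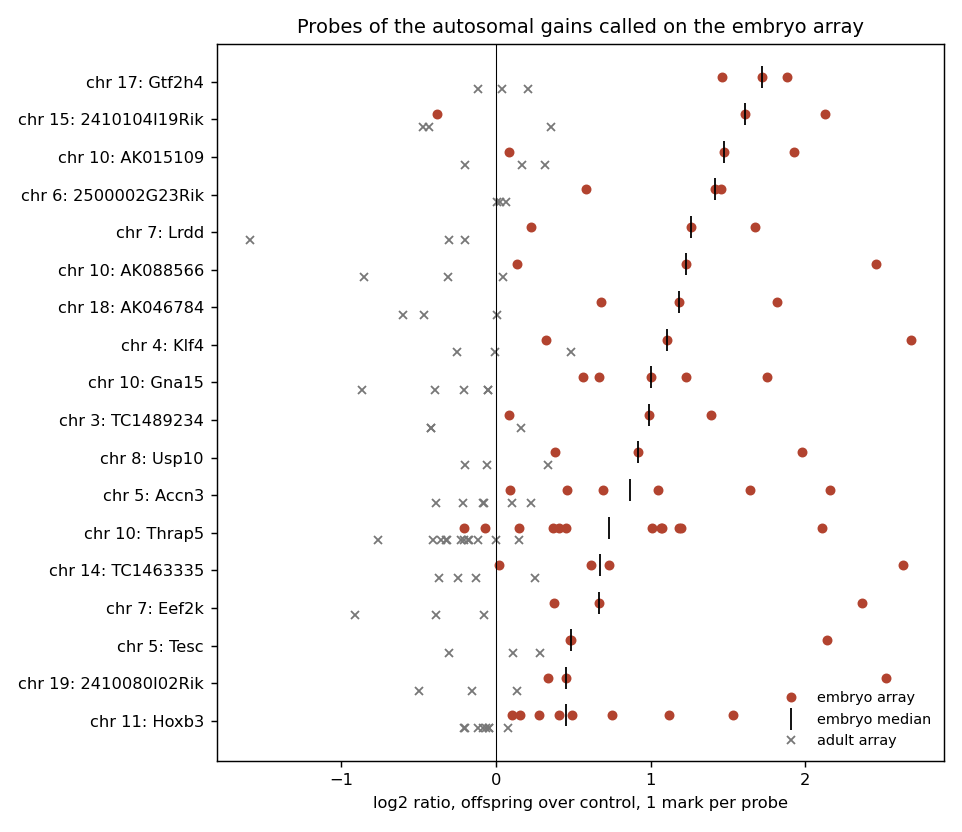
Probes of the 18 autosomal gains, 1 line per gain named by its highest probe, with log2 ratios of offspring over control on the embryo array (filled), their median (bar) and the same probes on the adult array (crosses). Most gains join a probe at 1 or more with probes nearer 0, and 14 of the 18 have adult medians below 0.

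Over the array, both tails were larger for probes of genes with 20 or more CG in the promoter than for those with fewer than 5. Promoters were matched for 22544 usable probes of 12347 genes. With fewer than 5 CG in the promoter, 0.552% of 3623 probes were at 1 or more. With 20 to 30 CG it was 1.71% of 6030 probes, and with 30 or more 1.41% of 4198. Probes at −1 or less made up 0.304% of the first class and 0.481% of the second. The median ratio was 0.019 with fewer than 5 CG and −0.0022 with 30 or more. On the adult array the share at 1 or more was 0.442%, 0.348% and 0.381%. With the dyes the other way round, that is the shorter tail there (184 probes, against 447 at −1 or less). The adult share at −1 or less was not counted by promoter, so the long tails of the 2 arrays are not compared here. These counts are of probes, grouped by the promoter of their gene, and where the probes lie relative to the promoters was not tested.

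Gene lists were counted over names with at least 1 usable probe, since many developmental genes have 1. Of 21900 such names 844 were higher by 0.5 (background share 3.85%) and 773 were lower (background share 3.53%). Among the 10851 names with 1 probe the shares were 5.73% and 5.64%. Genes of the lists that rest on 1 probe are named below because they passed 0.5, after their values were seen. Of the 560 list entries, 17 have their probes on another chromosome than the RefSeq table gives, and 1 of these (Mll3, now Kmt2c) was past 0.5. The probes of 35 entries spread over more than 2 Mb, and 0 of these were past 0.5.

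Developmental transcription factors stood above these shares on the higher side. On the lower side they stood between the share of all names and that of names with 1 probe. Of 142 measured genes of the Hox, other homeobox and Sox, Fox, Tbx and Gata lists, 23 (16.2%) were higher and 7 (4.93%) lower, with a median of 0.13 against 0.0090 for all names. Of the 142 genes 89 had 1 probe, as did 19 of the 23. On the adult array 3 of the 142 were higher and 5 lower, against 490 higher and 840 lower of all 21900 names there. Their probes were more often short than usual in the Hox list (55.6% full length) and the homeobox list (70.3%), but not in the Sox, Fox, Tbx and Gata list (83.1%). Among 60-base probes alone, 4 of 20 Hox probes, 8 of 71 homeobox probes (11.3%) and 6 of 64 Sox, Fox, Tbx and Gata probes (9.38%) were higher, against 3.52% of all 60-base probes. The 3 medians stayed above 0 in the 9 other ways of processing, from 0.073 to 0.22. This was not particular to them. Kallikreins (0.11 to 0.23), imprinted genes (0.052 to 0.071) and collagens (0.021 to 0.063) stayed above 0 too, while cadherins stayed below (−0.054 to −0.016).

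Homeobox genes other than Hox had 11 of 61 higher and 2 lower. En1, which patterns the midbrain and cerebellum, read 1408, 2081 and 789 in offspring against 691, 967 and 737 in control (1.02, 1.099 and 0.091). Pax1, a gene of the sclerotome that forms vertebrae, read 4777 and 1268 in offspring against 2884 and 512 in control (0.72 and 1.30). Pax6, the regulator of eye development, read 1756 and 1476 in offspring against 730 and 1326 in control (1.26 and 0.15). In En1 and Pax6 high and nearly even probes lay within 10 kb of each other.

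With 1 probe each, Nkx2-5, a regulator of heart development, read 1622 in offspring and 389 in control (2.05), and Isl2, of motor neurons, 1940 in offspring and 509 in control (1.92). Nkx2-3 had 1.41, Nkx2-2 1.17, En2 0.71, Dlx5 0.67, Lhx5 0.65 and Dlx2 0.61. For Dlx5 the scanner software's error, 0.76 log2, exceeds the ratio. Pitx1, which specifies the hindlimb, was lower at 1143 in offspring and 2207 in control (−0.96), and Evx1 had −0.58. Six3, a forebrain gene, had a median of 0.46 from probes at −0.31 and 1.23.

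The Hox list had 7 of 34 genes higher and 4 lower, and the clusters differed. All 8 Hoxb genes were above 0, with a median of 0.45. The 10 Hoxa genes on chromosome 6 had a median of −0.022, with Hoxa7 at 0.98 but Hoxa2 at −0.69 and Hoxa5 at −0.52. The 8 Hoxc genes on chromosome 15 had 0.11, with Hoxc9 at 1.53 and Hoxc6 at 0.80. The 8 Hoxd genes on chromosome 2 had 0.029, with Hoxd3 at 1.12 and Hoxd1 and Hoxd13 at −0.69. The difference between clusters was not tested. Hoxc4 had 2 probes, which disagreed, at 0.38 and −1.22.

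In the Sox, Fox, Tbx and Gata list 5 of 47 genes were higher and 1 lower. Gata6, a regulator of heart and endoderm, read 881 and 1504 in offspring against 325 and 1345 in control (1.43 and 0.15). Sox11, of the developing nervous system, read 1303 in offspring and 498 in control (1.38). Foxq1 had 0.87, Foxh1, a partner of Smad proteins in Nodal signalling, 0.76, and Foxc1 0.53, while Foxf1a (now Foxf1) had −0.62. Foxk1 (0.30), Tbx5 (0.24) and Tbx18 (0.24) lay short of 0.5.

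**Figure D5:**
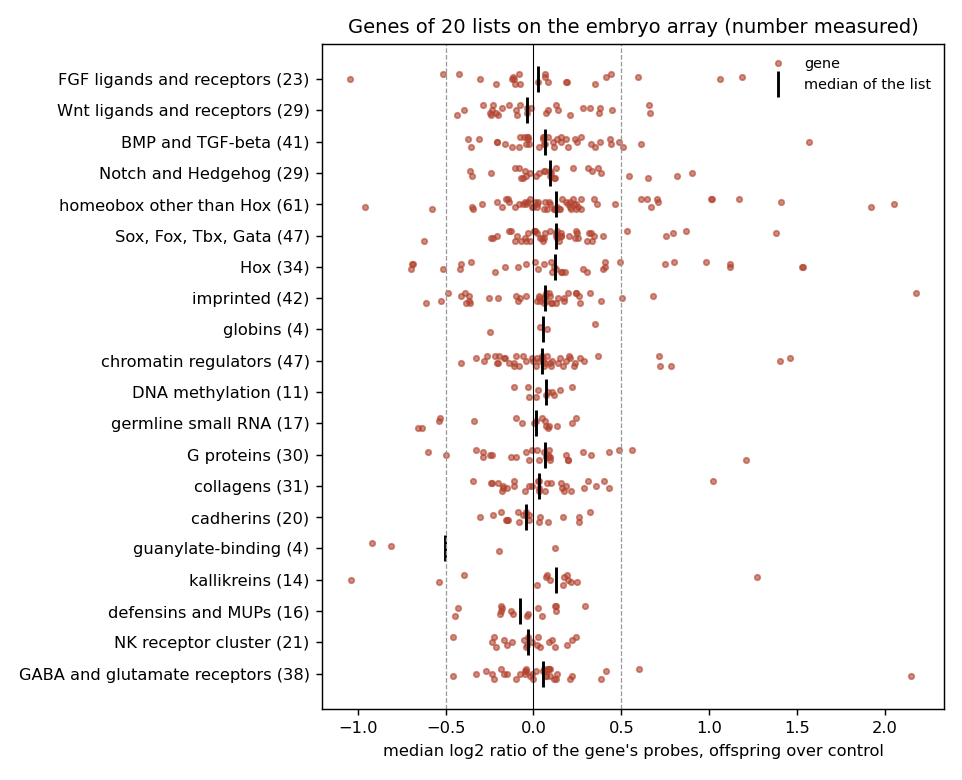
Median log2 ratio of offspring over control (x axis) of each measured gene in 20 of the 21 lists, with the number of genes measured in brackets, the median of the list as a bar and dashed lines at −0.5 and 0.5. The Hox, homeobox and Sox, Fox, Tbx and Gata lists together have 23 of their 142 genes at 0.5 or more and 7 at −0.5 or less, and the guanylate-binding list has the lowest median, −0.50.

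Signalling genes of the embryo stood nearer to the background than these transcription factors, with 12 of 122 (9.84%) higher and 2 (1.64%) lower. The background shares were 3.85% and 3.53%, and 10 of the 12 rested on 1 probe. In the Notch and Hedgehog list 4 of 29 were higher and 0 lower, with a median of 0.093. Jag2, a Notch ligand, read 2523 and 707 in offspring against 1340 and 424 in control (0.91 and 0.73), so both probes were higher. Shh, the Hedgehog ligand of the neural tube and limb, read 1069 and 919 in offspring against 1175 and 390 in control (−0.14 and 1.23). Rfng had 0.90 and Hes1, a target of Notch, 0.65. Gli3, a transcription factor of the Hedgehog pathway, had −0.36.

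In the FGF list 3 of 23 were higher and 2 lower, with a median of 0.024. Fgf3, a ligand of inner ear development, read 1554 in offspring and 742 in control (1.06), and Fgf15 had 0.60. Fgf23, a hormone of phosphate balance, read 847 in offspring and 1735 in control (−1.04), and Fgf1 had −0.51 from probes at −0.092 and −0.93. Among receptors Fgfr3 had 0.44. In the BMP and TGF-beta list 3 of 41 were higher and 0 lower, with a median of 0.065: Gdf15 had 1.57, Inhbb 0.61 and Nodal, the left-right and mesoderm signal, 0.51, each from 1 probe. Acvr1b, an activin receptor, had 3 probes from 0.42 to 0.52. In the Wnt list, of 29 measured, the receptors Fzd2 and Fzd9 were higher, at 0.66 from 1 probe each, and 0 were lower. For Fzd2 (212 in offspring, 133 in control) the scanner software's error, 0.83 log2, exceeds the ratio. The median of the list was −0.037. It was 0.044 with the normexp correction, so its sign depends on the processing.

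Of 11 measured genes that act in DNA methylation, 0 passed 0.5 in either direction, and their median was 0.069. Of their 25 probes 1 was higher by 0.5. With background shares of 3.85% higher and 3.53% lower, 0 of 11 does not set this list apart. Dnmt3a, the methyltransferase with which Dnmt3L acts, had 0.15 (3 probes), Dnmt3b 0.10 (2 probes) and Dnmt1, the maintenance enzyme, −0.11 (3 probes). Tet1, an enzyme that oxidises methylated bases, had 0.22, the highest of the list. Imprinted genes, expressed from the copy of 1 parent, had 3 of 42 higher and 2 lower, with a median of 0.064. With the normexp correction 4 were higher and 0 lower, and with centring on the autosomes 2 were higher and 2 lower. Phlda2, which limits placental growth, read 1610 in offspring and 354 in control (2.18, 1 probe). Igf2, a fetal growth factor, read 1783 and 1599 in offspring against 717 and 1532 in control (1.31 and 0.054), and Slc38a4 had 0.51. Cdkn1c, a growth-restraining gene near Phlda2, had −0.61 and Dio3 −0.52, while H19, beside Igf2, had 0.32.

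Genes of small RNA pathways, most of them used in the germ line to silence transposable elements, had 0 of 17 higher and 4 (23.5%) lower. Each of the 4 rested on 2 probes, and the background share of lower names was 3.53%. Ddx4, the germ cell helicase Vasa, read 1122 and 1767 in offspring against 2824 and 1671 in control (−1.34 and 0.073). Eif2c2 (now Ago2) read 402 and 156 in offspring against 509 and 303 in control (−0.35 and −0.96). Tdrd6, a Tudor protein gene of germ granules, had −0.35 and −0.73, and Dgcr8, of microRNA processing, −0.40 and −0.67. With the normexp correction 0 of the 17 were past 0.5 in either direction, so all 4 calls were lost. The list's median was 0.015, and −0.093 with that correction. Of all names 3.85% were higher and 3.53% lower, and of names with 1 probe 5.73% were higher. Among chromatin regulators 5 of 47 (10.6%) were higher and 0 lower, with a median of 0.051. Each of these 5 rested on 1 probe. Among them BC035291 (now Setd1b), a histone methyltransferase gene, read 1226 in offspring and 462 in control (1.40), Mll3 (now Kmt2c) had 0.78, from a probe on chromosome 11 where the RefSeq table gives chromosome 5, Trim28, a corepressor that keeps transposable elements silent, 0.72, and Mbd3 0.72.

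The other lists held few genes past 0.5. G protein subunits had 2 of 30 higher (Gna15 and Gna11) and Gng3 lower at −0.60, with a median of 0.065. Collagens had 1 of 31 higher, Col13a1 at 1.02, from probes at 0.0080 and 2.03, and a median of 0.032. GABA and glutamate receptors had Grin2d at 2.15 and Grm6 at 0.60 higher and 0 lower of 38, with a median of 0.056. Kallikreins, a tandem family of proteases that share sequence, had Ngfa (now Klk1b4) at 1.27, Klk14 at −1.04 and Prss19 (now Klk8) at −0.54 of 14, with a median of 0.13. With the normexp correction 0 kallikreins were past 0.5, and with loess 1 was higher and 1 lower. The guanylate-binding list had 2 of 4 lower, both in the chromosome 3 block, while Gbp4 (0.12) and Gbp8 (−0.20) on chromosome 5 were not past 0.5. Classical cadherins (20 measured, median −0.043), defensins and major urinary proteins (16, −0.075), genes of the natural killer receptor cluster (21, −0.032), globins (4, 0.055) and protamines and transition proteins (1, −0.15) had 0 past 0.5 in either direction. Of these 5, the medians of the defensins, the natural killer cluster and the protamines changed sign under 1 of 9 other ways of processing.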

How the data were processed

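Genomic DNA of 2 hybridisations was measured on Agilent 2-colour arrays, and the embryo array was analysed here. Per the file headers, Agilent Feature Extraction 9.1.1.1 (9.1 per the submitters' processing notes) wrote the deposited intensity values: the software subtracted background, removed spatial trends, put surrogates in place of dim signals and scaled the dyes linearly. The log10 ratios of the deposited value table matched the scanner file's Cy5 over Cy3 within 0.0005 (median 0.0018), so their scale and direction are settled, and they were used as an alternative. For the probe positions, no build is named there.

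Of 44050 spots, 1030 control spots and 34 spots with an outlier mark were left out. The log2 ratio of offspring (Cy5) over control (Cy3) was taken from processed signals, averaged per probe and centred on the median of all probes, with no loess. Names were matched to the mouse RefSeq table: of 22162 autosomal names 10648 were current, 5506 were single synonyms and 6008 were kept as the files give them. None of the table's gene coordinates was used beside those of the files. A gene's value is the median of its usable probes. Segments came from a least-squares partition of each chromosome penalised per break by 3 noise variances, multiplied by the natural log of the chromosome's probe number, at least 3 probes, a median at least 0.3 from 0 and at most 90% of the chromosome. The steps were tested on simulated data with normal noise and placed shifts. For segments only the recovery of placed ones was scored. None of those had as few as 3 probes, and segments called elsewhere were not counted. No test was possible with 1 array. Tools were Python 3.11.15, numpy 2.4.6, pandas 2.3.3, matplotlib 3.10.9, R 4.3.3 and limma 3.58.1.

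The members and the gene lists were chosen with earlier results of these data known. Named are the 20 highest and 20 lowest genes with at least 2 usable probes, the 10 highest and 10 lowest with at least 4, every called segment, the 5 highest and 5 lowest probes spotted 3 or more times, the 5 highest and lowest windows and up to 4 members of each of the 21 lists. Extreme single probes and list members with 1 probe were named after their values were seen, and list members are named in part. A few named items are not reported here.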

Additional observations from a re-analysis of the deposited data

Results flagged for a closer look

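Gains listed here had a median above 0 on the embryo array and a median at −0.30 or lower on the adult array, and the difference between the arrays was not tested. They were the chromosome 3 stretch of TC1463805 and AK045052 (embryo 0.99, adult −0.42), Eef2k on chromosome 7 (0.67, adult −0.39), Irf3, Lrdd and Rplp2 on chromosome 7 (1.26, adult −0.30), AK088566, Amh and 2300003C06Rik on chromosome 10 (1.23, adult −0.31), 2410104I19Rik with NAP125263-001 on chromosome 15 (1.61, adult −0.43) and AK046784 with B230399E16Rik on chromosome 18 (1.19, adult −0.46). The arrays differ in stage, tissue, control animals and dye orientation, which cannot be told apart.

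Outside the autosomes, the 1566 probes of X had a median of −0.86, with 1522 (97.2%) below 0, although both sides are labelled female. The cause was not tested.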

How the results depend on the processing

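No paired analysis was possible because there is 1 array of embryos and no replicate, and no replicate could be left out. Of 95 alternative values of the main counts and medians, 80 stayed within the limits set for them. Most of the 95 are counts, which have no sign, and none of the medians changed sign. Some ways of processing were near repeats of each other. Keeping only spots well above background and leaving out surrogate values both gave 1806 higher and 2248 lower probes. With normexp background correction, an offset of 50 and no dye scaling, 2907 probes were higher and 1036 lower, 48 genes were lower, 2 gains were called and the chromosome 3 block had −0.601. The cause was not tested. With a penalty factor of 5 there were 2 gains, and with at least 5 probes per segment 8. At 1 log2 in place of 0.5, 481 probes and 31 genes were higher and 150 probes and 2 genes lower. With at least 3 usable probes (2437 genes), 21 genes were higher and 26 lower, so lower genes outnumbered higher ones, and the cause was not tested. With every probe past 0.5 there were 27 and 20. The balance of probes turned too under normexp, from more lower to more higher. Of 59 named genes, 51 moved by more than 0.065 under normexp, 2 under loess and 2 with probes within 1 kb merged, and none in the other 6 ways of processing. Of 21 lists 8 moved so under normexp, which changed the sign of the median for the Wnt, small RNA, defensin and protamine lists, and loess for the natural killer cluster. Under normexp 5 BMP and TGF-beta genes, 4 G protein genes, 4 GABA and glutamate receptor genes, 3 collagens and 1 cadherin were higher, but 1 Wnt gene was. In the FGF list 2 were higher and 1 lower, in the Hox list 8 and 2, and in the other homeobox list 13 and 1, and Foxf1a was no longer past −0.5. The correction for base composition was not run, since probe sequences were not used here. The dimmest 10% of probes had the widest spread (SD 0.45).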
